A study of Mus musculus with 6 samples.

Results

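The genes described here are the nuclear genes of oxidative phosphorylation, in T cells sorted from intracranial CT2A tumors, a mouse glioma line grown in the brain. All genes whose symbol starts with Nduf, Uqcr, Atp5, Cox4, Cox5, Cox6, Cox7 or Cox8 were taken, with Sdha, Sdhb, Sdhc and Sdhd added and pseudogenes left out. This gave 93 of the 32285 genes in the deposited matrices: 7 core subunits of complex I, 31 other Nduf genes, 8 Ndufaf genes for complex I assembly factors, 4 genes of complex II, 8 of complex III, 18 of complex IV and 17 of the ATP synthase. They are set beside the 13 protein genes of mitochondrial DNA, whose symbols start with mt-.

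The respiratory chain passes electrons from NADH and succinate through complexes I to IV to oxygen and pumps protons across the inner mitochondrial membrane, and the ATP synthase uses that gradient to make ATP. Complexes I, III and IV and the ATP synthase each combine subunits made in the cytosol from nuclear genes with subunits made inside the mitochondrion from its own genome, while complex II is encoded in the nucleus alone. Activated T cells that divide are known to build up mitochondria, and loss of mitochondrial fitness is a known feature of exhausted CD8 T cells in tumors.

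The animals were wild-type C57BL/6J mice of 6 to 8 weeks, without a treatment named in the labels, and T cells carrying CD3 with CD4 or with CD8 were sorted at day 13 (16 tumors, in pools of 4 mice) or day 19 (4 tumors). Transcripts were counted with 10x Genomics 5′ single-cell chemistry as UMIs (unique molecular identifiers, 1 per captured molecule), in 1 capture per day, beside a T cell receptor library and an antibody tag library that was not used here. Receptor contigs came in 4 tables per day, and the cells of each form what is called a contig set here. The labels do not tie these sets to the pools or tumors, so values per set show the spread inside a capture and are not replicates. With 1 capture per day there is no test and no p-value, and day and capture cannot be told apart.

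Barcodes with a receptor contig numbered 8359 at day 13 and 4295 at day 19. At least 5000 gene UMIs were required, which 4632 and 3215 barcodes met, with medians of 7607.5 and 10079 UMIs, and the limit of 10% mt- UMIs removed 0 barcodes. Of these, 2959 and 1800 were CD8 T cells (a UMI of Cd8a or Cd8b1, none of Cd4) and 797 and 794 were CD4 T cells (the reverse). All 8 genes of the T cell marker list had UMIs in both classes. So did all 12 genes of the macrophage and microglia list, at a summed 2275 and 2881 CPM (counts per 1000000 gene UMIs) in non-cycling CD8 and 7947 and 9099 CPM in non-cycling CD4 T cells at days 13 and 19. Barcodes with 20 or more UMIs of macrophage, dendritic cell and B cell markers, Bst2 left out, are called barcodes with other-cell UMIs. They made up 11.8 and 19.5% of CD8 and 40.9 and 49.2% of CD4 T cells. Values without them are given beside the results. This limit was not planned. The planned limit was stricter, at fewer than 3 such UMIs with Bst2 counted. Of CD8 T cells 82.7 and 75.5% had 3 or more, and of CD4 T cells 87.8 and 87.2%. Ribosomal protein genes took 16.7 to 34.1% of the UMIs of a group and moved with most comparisons, so ratios are also given on a total without ribosomal and mt- genes. A set of 28 kept barcodes occurred on both days.

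Of the 93 members, 82 had at least 1000 UMIs over the kept barcodes and 3 had none (Cox7b2, Cox8c and Ndufa4l2). Together they held 1540800 UMIs, 32.5% of them from the 10 genes with the most. The tissue-restricted isoforms of complex IV were nearly silent, with 3 UMIs for Cox8b, 17 for Cox4i2, 125 for Cox6b2, 128 for Cox7a1 and 414 for Cox6a2, while their widely expressed partners Cox8a, Cox4i1, Cox6b1, Cox7a2 and Cox6a1 were among the 82. Ppargc1a, a coactivator of mitochondrial biogenesis, was near 0, at 0.09 CPM in CD8 T cells of day 13 and 0.07 CPM at day 19.

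In non-cycling cells the nuclear genes took close to 2% of all gene UMIs and the mt- genes close to 1%. The nuclear share in CD8 T cells was 2.09, 2.05, 2.04 and 2.08% in the 4 sets of day 13, and 2.23, 2.29, 2.20 and 2.26% in those of day 19. In CD4 T cells it was 1.98, 1.86, 1.89 and 1.91% at day 13, and 2.11, 2.18, 2.14 and 2.18% at day 19. In both classes every set of day 19 lay above every set of day 13. This still held in CD8 T cells without barcodes with other-cell UMIs, but the CD4 sets then overlapped, at 2.02 to 2.22% on day 13 and 2.17 to 2.31% on day 19. The mt- share was higher at day 19 too, going from 0.942, 0.944, 1.00 and 0.930% to 1.09, 1.05, 1.05 and 1.07% in CD8 and from 0.802, 0.777, 0.785 and 0.722% to 0.991, 1.02, 0.990 and 0.991% in CD4 T cells, again without overlap.

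**Figure D1:**
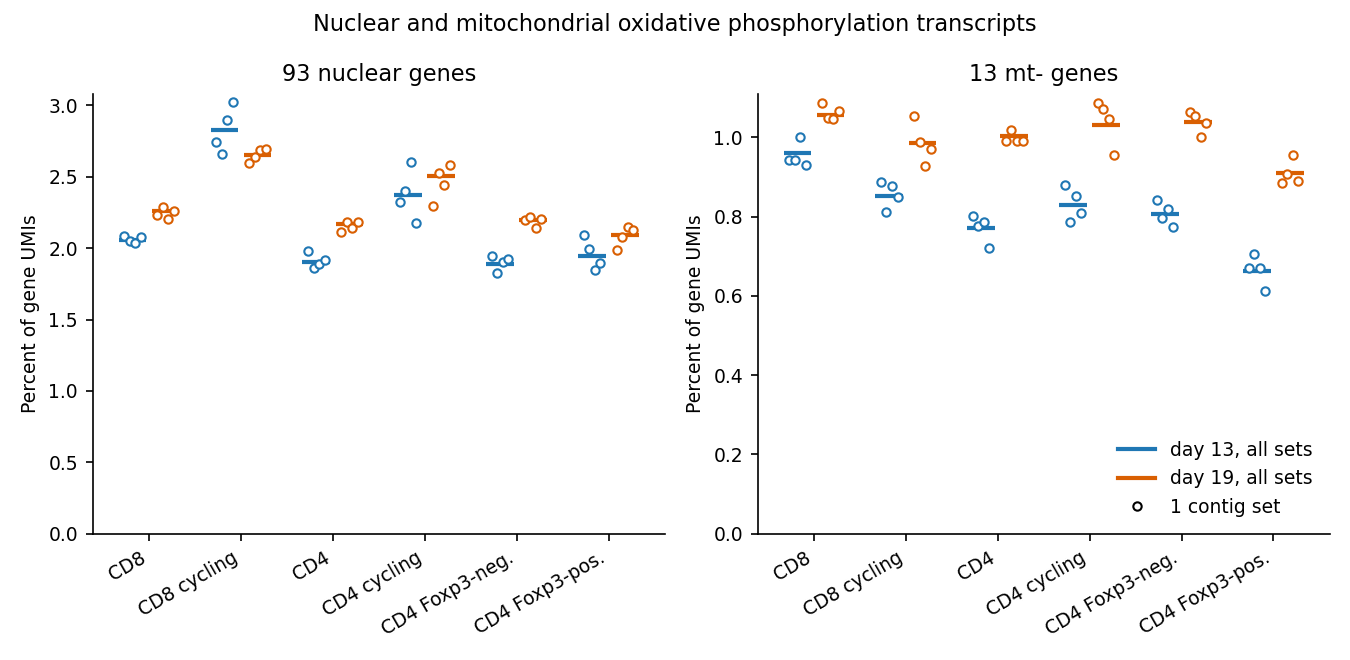
Share of gene UMIs (percent, y axis) taken by the 93 nuclear genes (left) and the 13 mt- genes (right) in groups of T cells at day 13 (blue) and day 19 (orange); lines are all sets together and circles single contig sets, and groups not named as cycling hold non-cycling cells. Cycling CD8 T cells had the highest nuclear share, 2.83% at day 13, and Foxp3-positive CD4 T cells of day 13 the lowest mt- share, 0.662%.

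Between the days, the summed nuclear genes differed by a log2 ratio of 0.14 in CD8 T cells (95% interval 0.13 to 0.14) and 0.19 in CD4 T cells (0.18 to 0.20). The intervals are exact for a ratio of 2 Poisson counts and cover counting error only. The mt- genes differed by 0.14 in CD8 and by 0.38 in CD4 T cells. At least 200 UMIs in both sums together were required of a gene, which 85 members met in CD8 and 82 in CD4 T cells. A fold threshold of 0.32 on the log2 scale was used for counts. Past it, 8 members in CD8 and 14 in CD4 T cells were higher and 0 were lower, against 10.9% of all tested genes higher and 19.1% lower in CD8, and 13.1 and 13.9% in CD4 T cells. The share of members higher past the fold was thus a little below the background in CD8 and a little above it in CD4 T cells. In CD4 T cells it was 6 of 78 against 12.1% without barcodes with other-cell UMIs and 29 of 78 against 21.5% among barcodes of 8000 to 14000 UMIs, so the direction turned with the barcodes used. Of the tested members 75 in CD8 and 81 in CD4 T cells had a ratio above 0, and the median member stood at 0.16 and 0.20, against -0.06 and 0.01 over all tested genes. Every day-19 set was higher than every day-13 set for 38 members in CD8 T cells (8.84% of all tested genes) and 31 in CD4 T cells (9.26%), and lower for 2 and 0 (15.5 and 8.27%). Leaving out barcodes with other-cell UMIs, every day-19 set was higher for 27 of 85 members in CD8 (8.27% of all tested genes) and for 9 of 78 in CD4 T cells (5.09%).

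Single members are ranked from here on among those with at least 1000 UMIs in the comparison. Ndufa12, an accessory subunit of complex I, had the largest ratio of these in both classes. Its level was 64.9, 65.7, 82.7 and 70.3 CPM in the CD8 sets of day 13, and 114, 103, 98.1 and 109 CPM in those of day 19, a log2 ratio of 0.53 (0.43 to 0.64). CD4 T cells went from 67.1, 61.1, 55.8 and 56.4 CPM to 87.5, 90.6, 92.0 and 90.6 CPM, a ratio of 0.61 (0.43 to 0.78). Neither class overlapped between the days, but the CD4 sets did so without barcodes with other-cell UMIs, where the ratio was 0.52. Atp5g1, 1 of 3 genes that encode the same ring-forming c subunit of the ATP synthase, followed with 0.44 in each class. Its level over all cells together went from 220.4 to 299.0 CPM in CD8 and from 185.9 to 252.7 CPM in CD4 T cells, again without overlap of sets. The other genes for that subunit, Atp5g2 and Atp5g3, had ratios of 0.22 and 0.21 in CD8 and 0.28 and 0.33 in CD4 T cells. Ndufv3 and Ndufa11 (complex I) were also among the highest of these in CD4 T cells, with 0.42 and 0.38, as were Ndufaf4 and Ndufb2 in CD8 T cells, with 0.35 and 0.34. The 2 members that were lower in every CD8 set of day 19 were Ndufa3, at -0.16, and Ndufa4, at -0.29, to which the text returns. The lowest of the CD4 members with 1000 UMIs was Ndufa3 as well, at -0.03 (-0.11 to 0.04).

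Of the mt- genes, mt-Cytb (complex III) and mt-Co3 (complex IV) had the largest differences between the days, 0.45 and 0.39 in CD8 and 0.63 and 0.66 in CD4 T cells. Median depth went from 7090 to 8686.5 UMIs in CD8 and from 8110 to 9726 UMIs in CD4 T cells. Dendritic cell markers went from 1356 to 669 CPM in CD8 and from 1803 to 1029 CPM in CD4 T cells. NK and gamma-delta markers went from 761.2 to 1268 CPM and from 2201 to 2064 CPM. Neural and choroid plexus markers went from 66.45 to 123.3 CPM and from 68.3 to 123.4 CPM. The NK and neural lists are not among the other-cell markers. Without barcodes with other-cell UMIs the nuclear ratio was 0.12 in both classes and the mt- ratio 0.09 in CD8 and 0.28 in CD4 T cells.

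Next to CD4 T cells of the same capture, CD8 T cells carried a slightly larger nuclear share on both days. The log2 ratio was 0.11 (0.10 to 0.12) at day 13, with 0.08, 0.14, 0.11 and 0.12 in the 4 sets, and 0.06 (0.05 to 0.07) at day 19, with 0.08, 0.07, 0.04 and 0.05. The mt- genes differed by 0.32 at day 13 and 0.07 at day 19. Their ratio was 0.20 and 0.01 without barcodes with other-cell UMIs, and among barcodes of 8000 to 14000 UMIs it was 0.30 at day 13 and turned to -0.10 at day 19. Of 85 members tested, 1 was higher and 1 lower past the threshold at day 13, where 13.4% of all tested genes were higher and 24.5% lower. At day 19 the counts were 3 and 2, with 12.4 and 31.3% over all genes. In all barcodes these shares of members are below the background in both directions. Among barcodes of 8000 to 14000 UMIs, 17 of 81 members were higher at day 13, near the 19.1% of all genes. The nuclear ratio in that window was 0.23 at day 13 and 0.06 at day 19. The nuclear ratio moved with the total and with other-cell RNA: it was 0.27 and 0.26 without ribosomal and mt- genes, which took 28.0 and 20.03% of the UMIs of CD8 and CD4 T cells at day 13 as ribosomal genes alone. It was 0.02 on both days without barcodes with other-cell UMIs. At the planned limit of fewer than 3 such UMIs, with Bst2 counted, it was -0.08 on both days.

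Within that small difference, complex I subunits stood on both sides. Ndufb2 was higher in CD8 T cells, at 111, 98.2, 99.2 and 117 CPM in the day-13 sets against 97.2, 71.5, 83.7 and 90.0 CPM in CD4 T cells, a ratio of 0.30 (0.17 to 0.43). At day 19 it was 0.45 (0.32 to 0.57), and CD8 was higher in all 4 sets on both days. Ndufb8 leaned the other way, with -0.18 at day 13, where 1 of 4 sets was higher in CD8, and -0.36 (-0.46 to -0.26) at day 19, where 0 of 4 were. Ndufc2 was lower in CD8 T cells in all sets of both days, with -0.19 and -0.23. On the total without ribosomal and mt- genes the ratios of Ndufc2 were -0.03 on both days. Cox7b (complex IV), Ndufv1 (the core subunit that binds NADH) and Ndufa4 were the highest at day 13 of the members with at least 1000 UMIs, with 0.32, 0.31 and 0.31. By complex, the ATP synthase genes had the ratios 0.14 and 0.12, while the 4 complex II genes had 0.01 and -0.10. The total without ribosomal and mt- genes raises every ratio here as much as that of the summed nuclear genes. That one goes from 0.11 to 0.27 at day 13 and from 0.06 to 0.26 at day 19. On that total Ndufb8 is within the fold threshold at day 19, and the day-19 ratio of complex II is above 0.

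Foxp3-positive CD4 T cells, which hold the regulatory T cells, had a smaller mt- share than Foxp3-negative ones, while the nuclear share differed less. The nuclear log2 ratio was 0.04 (0.02 to 0.06) at day 13, from 0.10, 0.13, -0.04 and -0.02 in the 4 sets, and -0.07 (-0.09 to -0.06) at day 19, from -0.15, -0.09, 0.01 and -0.06. The sets disagreed in sign on both days, and the day-13 ratio was -0.01 on the total without ribosomal and mt- genes. The nuclear ratio was 0.02 and -0.14 without barcodes with other-cell UMIs. The mt- ratio was -0.29 (-0.31 to -0.26) and -0.19 (-0.22 to -0.17), below 0 in all 4 sets of each day and for all 13 mt- genes, from -0.62 for mt-Nd2 to -0.08 for mt-Nd6 at day 13. Without barcodes with other-cell UMIs the mt- ratio was -0.32 and -0.31. Macrophage markers summed to 5386 CPM in Foxp3-positive against 8778 CPM in Foxp3-negative cells at day 13, and to 9788 against 8842 CPM at day 19.

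Of the tested members 0 of 78 were past the threshold in either direction at day 13, with 11.7% of all tested genes higher and 10.9% lower. At day 19, 0 of 80 were higher and 2 lower, with 10.8 and 9.93% over all genes. Without barcodes with other-cell UMIs 12 of 74 were lower at day 19, with 15.4% over all genes. Atp5g1 was the lowest of the members with at least 1000 UMIs at day 19, at 216, 204, 207 and 218 CPM in Foxp3-positive against 296, 272, 253 and 266 CPM in Foxp3-negative cells, which did not overlap (-0.36, -0.51 to -0.21). Its ratio was -0.14 (-0.32 to 0.05) at day 13. Ndufb7 of complex I and Atp5d, the delta subunit of the F1 head of the ATP synthase, were higher in all 4 sets at day 13, with 0.28 (0.10 to 0.45) and 0.24 (0.12 to 0.35). Of the complex II genes, Sdhb, the iron-sulfur subunit, had 0.15 and 0.16, the latter with an interval from -0.01 to 0.33.

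**Figure D2:**
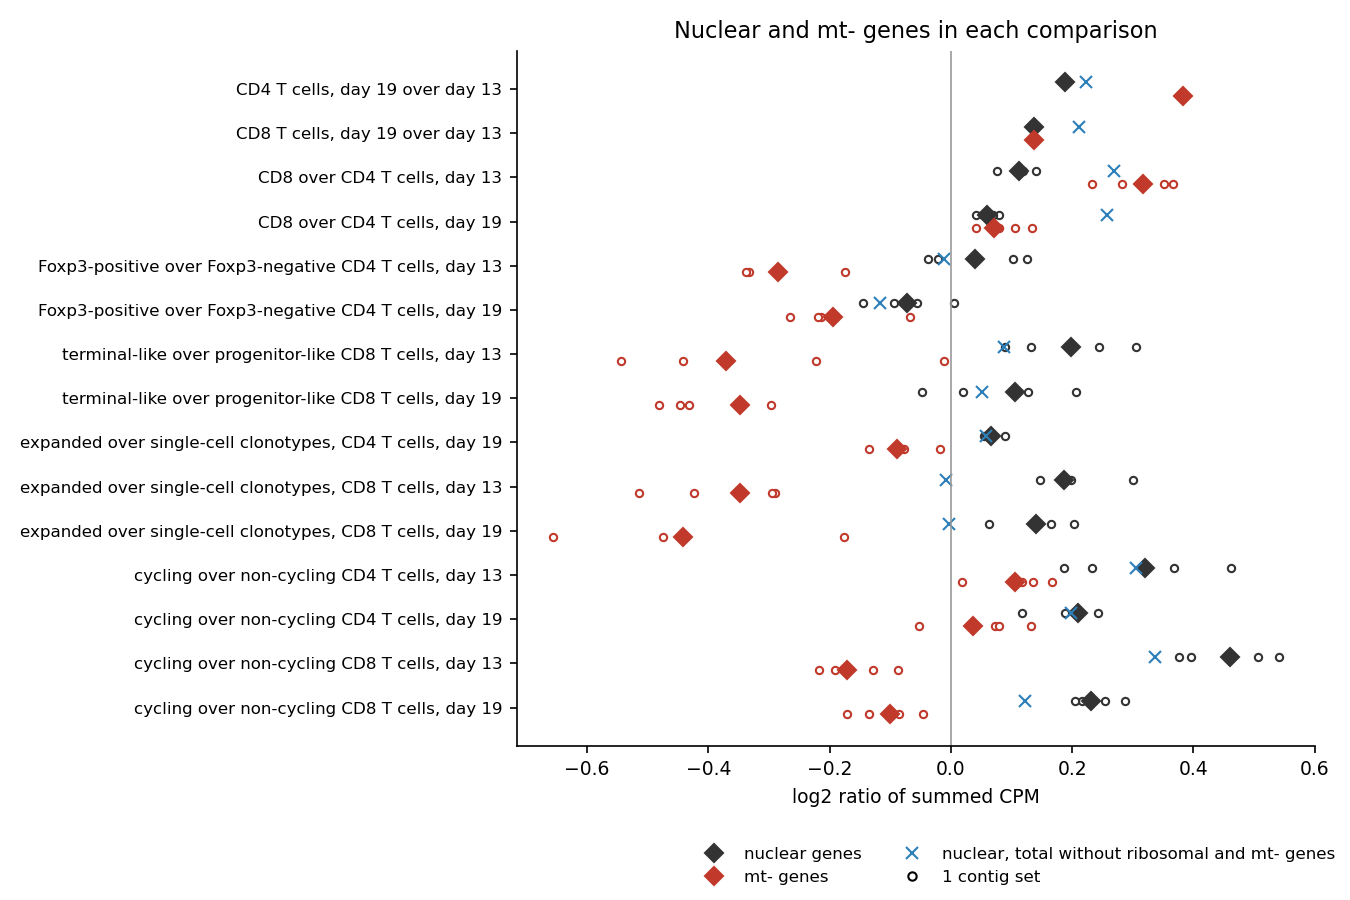
Log2 ratio of summed CPM (x axis) in each of the 15 comparisons (y axis) for the nuclear genes (black diamonds), the mt- genes (red diamonds) and the nuclear genes on a total without ribosomal and mt- genes (blue crosses); circles are single contig sets of the same colour. In terminal-like and expanded CD8 T cells the nuclear ratio is above 0 and the mt- ratio below 0 on both days, from 0.11 to 0.20 and from -0.44 to -0.35.

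States of non-cycling CD8 T cells were set by exhaustion genes on counts thinned to 5000 UMIs per cell. Pdcd1 encodes the inhibitory receptor PD-1, Tcf7 a transcription factor of progenitor exhausted cells, and Havcr2 the receptor TIM-3 of terminally exhausted cells. Cells with Pdcd1 and Tcf7 and without Havcr2 are called progenitor-like (285 at day 13, 86 at day 19), and cells with Pdcd1 and Havcr2 and without Tcf7 terminal-like (115 and 193). At day 13 the nuclear share was 1.98% in cells without Pdcd1, 2.06% in progenitor-like cells, 2.25% in cells with Pdcd1 alone and 2.36% in terminal-like cells. The same order held at day 19, with 2.13, 2.29, 2.44 and 2.47%. The mt- share ran the other way, 1.00, 0.993, 0.832 and 0.768% at day 13 and 1.16, 1.13, 0.907 and 0.885% at day 19. Nuclear UMIs per mt- UMI thus went from 1.98 in cells without Pdcd1 to 3.08 in terminal-like cells at day 13, and from 1.84 to 2.79 at day 19. Over the sets, cells without Pdcd1 (1.98 to 1.99% at day 13) lay below progenitor-like cells (2.00 to 2.33%) on both days without overlap. On the total without ribosomal and mt- genes the first step turned at day 13, with 2.88% in cells without Pdcd1 and 2.87% in progenitor-like cells, and the sets of these groups overlapped on both days. Progenitor-like cells overlapped with cells with Pdcd1 alone (2.17 to 2.35%), and these with terminal-like cells (2.24 to 2.54%), on both days.

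Terminal-like over progenitor-like cells had a nuclear log2 ratio of 0.20 (0.18 to 0.22) at day 13, from 0.09, 0.13, 0.25 and 0.31 in the 4 sets. At day 19 it was 0.11 (0.08 to 0.13), from -0.05, 0.13, 0.02 and 0.21. The mt- ratio was -0.37 (-0.41 to -0.34) and -0.35 (-0.38 to -0.31), below 0 in every set and for all 13 genes, from -0.55 (mt-Nd5) to -0.18 (mt-Nd1) at day 13 and from -0.61 (mt-Nd5) to -0.20 (mt-Nd4) at day 19. On the total without ribosomal and mt- genes the nuclear ratio was 0.09 and 0.05, and without barcodes with other-cell UMIs 0.26 and 0.13. Among barcodes of 8000 to 14000 UMIs it was 0.15 and 0.05 and the mt- ratio -0.54 and -0.36. On the total without ribosomal and mt- genes the nuclear ratio in that window was 0.05 at day 13 and turned to -0.04 at day 19. Terminal-like cells were deeper, with medians of 8884 against 6870 UMIs and 10969 against 8185.5 UMIs. Macrophage markers summed to 1806 against 817.7 CPM at day 13 and 1737 against 2205 CPM at day 19.

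Of 74 members tested, 18 were higher and 0 lower past the threshold at day 13, where 23.3% of all tested genes were higher and 18.1% lower. At day 19, 7 were higher and 5 lower, with 20.2 and 19.2% over all genes. The members' median was 0.17 and 0.11 against 0.06 and -0.01 over all genes. By complex, the complex IV genes had 0.26 (0.22 to 0.30) and 0.25 (0.20 to 0.30), the largest ratio of any complex on both days, though at day 13 its interval overlapped that of complex II (0.24, 0.07 to 0.40). Ndufa4, whose product is now placed with complex IV, is outside this sum because of its symbol, and counting it in gave 0.25 and 0.19. The mitochondrial subunits of the same enzyme had the opposite sign: mt-Co1, mt-Co2 and mt-Co3 stood at -0.35, -0.28 and -0.32 at day 13 and -0.37, -0.28 and -0.27 at day 19.

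Cox5a, a matrix-side subunit of complex IV, was the highest of the members with at least 1000 UMIs on both days. It was measured at 494, 438, 467 and 490 CPM in terminal-like against 370, 322, 284 and 324 CPM in progenitor-like cells at day 13, and the groups did not overlap (0.56, 0.39 to 0.72). At day 19 the values were 431, 519, 497 and 485 against 327, 375, 382 and 453 CPM, which overlapped by 1 set on each side, and the ratio was 0.37 (0.19 to 0.55). Cox6c, another nuclear subunit of complex IV, followed at day 13 with 0.48 (0.35 to 0.60), and Cox8a at day 19 with 0.36 (0.25 to 0.47), each higher in terminal-like cells in all 4 sets. Uqcrh, the hinge protein of complex III, was the lowest of those with at least 1000 UMIs at day 13, at -0.16 (-0.29 to -0.04).

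Of the alpha and beta subunits in the F1 head of the ATP synthase, Atp5a1 (alpha) was past the fold threshold downward in terminal-like cells at day 19. Atp5b (beta) was not. Atp5a1 was at 414, 312, 350 and 390 CPM against 347, 495, 555 and 457 CPM, a ratio of -0.51 (-0.68 to -0.33), with 3 of 4 sets lower. Its partner Atp5b had -0.28 (-0.43 to -0.13), with 2 of 4 sets lower. At day 13 the ratios were 0.05 and 0.16. Among barcodes of 8000 to 14000 UMIs the day-19 ratios were -0.82 and -0.39. Whether the days differ was not tested.

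Ndufa4 had the largest difference of any member described here. With 748 UMIs in the day-19 comparison it was under the 1000 UMIs asked of named members there, and it was added after its values were seen. Its product was first assigned to complex I, and the gene lies at chr6:11900372-11907450 in build GRCm38.p6. At day 19 it was measured at 169, 174, 225 and 178 CPM in terminal-like cells, against 438, 371, 473 and 366 CPM in progenitor-like cells of the same sets. Every terminal-like set was below every progenitor-like set, and the summed log2 ratio was -1.16 (-1.37 to -0.95). At day 13 the values were 417, 301, 376 and 458 against 441, 359, 329 and 367 CPM, which overlapped, and the ratio was 0.03 (-0.14 to 0.20). The day-19 ratio was -1.22 on the total without ribosomal and mt- genes, -1.26 without barcodes with other-cell UMIs and -1.35 among barcodes of 8000 to 14000 UMIs. The difference between the days was not tested.

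Across the states of day 19, Ndufa4 was at 334.1 CPM in cells without Pdcd1, 408.0 in progenitor-like cells, 224.6 in cells with Pdcd1 alone and 182.5 in terminal-like cells. At day 13 the 4 levels lay close together, at 347.5, 358.8, 375.8 and 366.5 CPM. Clone size, counted among kept barcodes, gave a similar order at day 19. Cells whose receptor was found once had 359.7 CPM. The level was 244.9 in clones of 2, 249.9 in clones of 3 to 9 and 148.4 in clones of 10 or more. The day-13 values for those sizes were 353.8, 400.5, 320.8 and 345.0 CPM. Since large clones hold many of the terminal-like cells, both were also split: at day 19 cells without Pdcd1 had 367.2 CPM in clones of 1 and 232.2 CPM in clones of 3 or more, and terminal-like cells had 186.1 CPM in clones of 1 or 2 and 144.6 CPM in clones of 3 or more. The low level was thus seen for large clones without Pdcd1 and for terminal-like cells of small clones. These splits were chosen after the values of Ndufa4 were seen. Cycling CD8 T cells had 557.1 CPM at day 13 and 393.7 CPM at day 19.

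**Figure D3:**
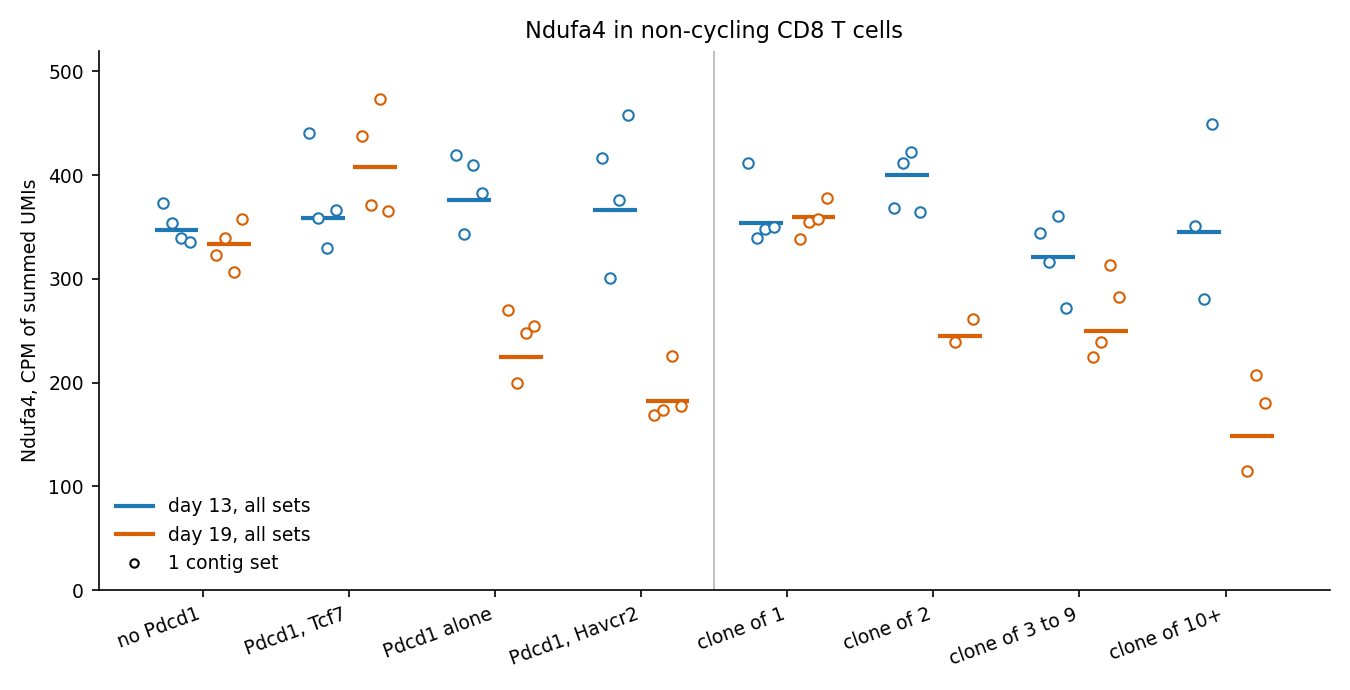
Ndufa4 in CPM of summed UMIs (y axis) in non-cycling CD8 T cells by exhaustion state (left of the grey line) and clone size (right) at day 13 (blue) and day 19 (orange); lines are all sets together and circles contig sets with at least 10 cells. At day 19 the level is 408.0 CPM in progenitor-like cells (Pdcd1, Tcf7) and 182.5 CPM in terminal-like cells (Pdcd1, Havcr2), while the day-13 levels lie between 320.8 and 400.5 CPM.

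Clones were defined by identical nucleotide CDR3 sequences (the third complementarity-determining region) of exactly 1 alpha and 1 beta chain within a contig set. The nuclear share of non-cycling CD8 T cells was 2.00% in clones of 1, 2.24% in clones of 2, 2.21% in clones of 3 to 9 and 2.36% in clones of 10 or more at day 13, and 2.17, 2.29, 2.37 and 2.42% at day 19. The mt- share was 1.00, 0.924, 0.808 and 0.768% at day 13 and 1.16, 0.963, 0.909 and 0.810% at day 19, falling at each step. Expanded cells (clones of 3 or more) numbered 384 in 72 clonotypes at day 13 and 245 in 41 clonotypes at day 19, and the largest clonotype held 6.2 and 23.3% of them.

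Expanded over single-cell clonotypes had a nuclear log2 ratio of 0.19 (0.17 to 0.20) at day 13, from 0.19, 0.20, 0.15 and 0.30 in the 4 sets, and 0.14 (0.13 to 0.15) at day 19, from 0.06, 0.14, 0.20 and 0.16. The mt- ratio was -0.35 (-0.37 to -0.33) and -0.44 (-0.46 to -0.42), below 0 in all sets and for all 13 genes. Among the mt- genes mt-Nd2 (complex I) was the lowest on both days, at -0.89 and -0.69, while mt-Co1 was at -0.18 and -0.33. The nuclear ratio depended on the total: ribosomal genes took 20.8 against 30.5% of UMIs at day 13 and 27.7 against 34.1% at day 19, and without ribosomal and mt- genes the ratio was -0.01 and -0.00. On that total the mt- ratio was -0.54 and -0.58. Without barcodes with other-cell UMIs the nuclear ratio was 0.22 and 0.19 and the mt- ratio -0.37 and -0.48. Macrophage markers summed to 2536 CPM in expanded against 1750 CPM in single-receptor cells at day 13, and to 2926 against 2246 CPM at day 19.

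**Figure D4:**
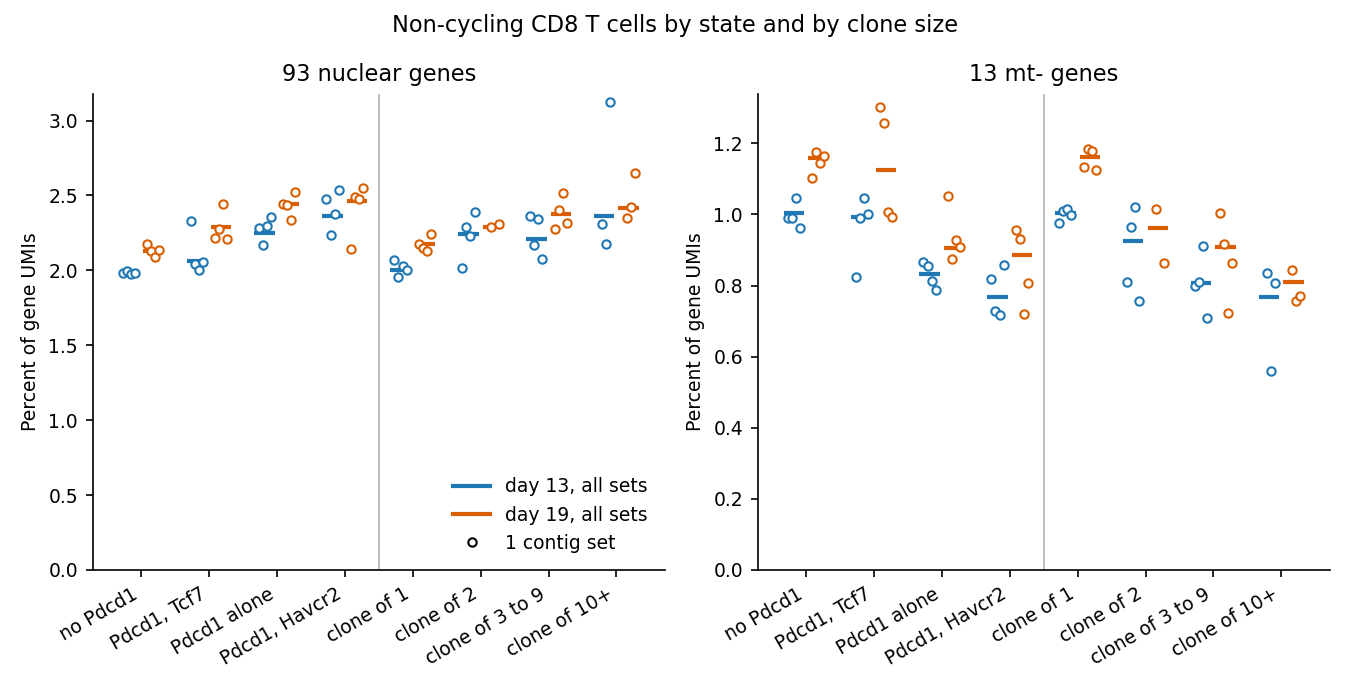
Share of gene UMIs (percent, y axis) of the 93 nuclear genes (left panel) and the 13 mt- genes (right panel) in non-cycling CD8 T cells by exhaustion state and clone size (x axis) at day 13 (blue) and day 19 (orange); lines are all sets together and circles contig sets with at least 10 cells. Terminal-like cells have 2.36 and 2.47% nuclear and 0.768 and 0.885% mt- UMIs, against 1.98 and 2.13% and 1.00 and 1.16% in cells without Pdcd1.

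Of the members, 12 of 82 were higher and 1 lower past the threshold in expanded CD8 T cells at day 13, with 26.5% of all tested genes higher and 11.4% lower. At day 19, 10 of 80 were higher and 4 lower, with 24.9 and 17.9% over all genes, so the share of members past the fold was below the background. Complex IV again had the largest ratio of the complexes, 0.30 (0.28 to 0.33) and 0.29 (0.27 to 0.32), against 0.15 and 0.08 for the ATP synthase, or 0.28 and 0.24 with Ndufa4 counted in. Cox5a was at 484, 428, 397 and 549 CPM in expanded against 316, 290, 334 and 319 CPM in single-receptor cells at day 13 (0.49, 0.40 to 0.58), and at 562, 467, 492 and 541 against 368, 356, 361 and 401 CPM at day 19 (0.41, 0.31 to 0.51). The groups did not overlap on either day, and the ratios were 0.30 and 0.27 on the total without ribosomal and mt- genes. Cox6c was level with it at day 13, at 0.49 (0.42 to 0.56). Ndufa13 of complex I, at 0.43, and Cox8a, at 0.42, were the highest of the members with at least 1000 UMIs at day 19. Ndufb7 and Ndufb8, also of complex I, had 0.48 and 0.47 at day 13.

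Among members with at least 1000 UMIs, Ndufa4 and Atp5a1 were the lowest here at day 19, while Atp5b was within the fold threshold. Ndufa4 was at 225, 167, 237 and 222 CPM in expanded against 338, 355, 358 and 378 CPM in single-receptor cells, without overlap (-0.88, -1.03 to -0.75). Atp5a1 had -0.33 (-0.44 to -0.22), lower in all 4 sets, and Atp5b -0.22 (-0.31 to -0.13), lower in 3 of 4. Their ratios at day 13 were -0.09 (Ndufa4), -0.06 (Atp5a1) and -0.01 (Atp5b). Terminal-like and expanded cells overlap, so these are not separate observations. Without the largest clonotype of each set, the day-19 ratio of Ndufa4 was -0.71 (-0.88 to -0.54). Each of the 4 day-19 clonotypes with at least 10 cells had less Ndufa4 than the single-receptor cells, from 95.9 to 207.1 CPM. At day 13 this was so for 5 of 10 such clonotypes, which ranged from 218.6 to 611.0 CPM.

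In CD4 T cells only day 19 allowed the comparison, with 181 expanded and 230 single-receptor cells, since day 13 had 19 expanded cells. The nuclear ratio was 0.07 (0.05 to 0.08), with 0.09, 0.05 and 0.06 in the 3 sets with at least 10 cells in both arms, and it was 0.02 among barcodes of 8000 to 14000 UMIs. The mt- ratio was -0.09 (-0.11 to -0.06), with -0.22 without barcodes with other-cell UMIs and -0.14 in the depth window. Of 78 members 2 were higher and 0 lower past the threshold, with 7.71 and 9.75% over all tested genes. The 2 members past it had fewer than 1000 UMIs. Of the members with at least that many, Cox7c of complex IV was the highest, at 703, 646 and 668 CPM against 578, 577 and 556 CPM, a ratio of 0.24 (0.14 to 0.35). Ndufa4 was the lowest of them, at -0.17 (-0.32 to -0.02), with 2 of 3 sets lower.

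Cycling cells carried a larger nuclear share than non-cycling cells of their class and day. They had at least 3 UMIs of 12 proliferation genes after thinning, and numbered 367 and 398 among CD8 and 55 and 128 among CD4 T cells. In CD8 T cells of day 13 the nuclear share was 2.75, 2.66, 2.90 and 3.02% in cycling cells, above all non-cycling sets, and the log2 ratio was 0.46 (0.45 to 0.47). At day 19 it was 2.60, 2.64, 2.69 and 2.696%, with a ratio of 0.23 (0.22 to 0.24). CD4 T cells had ratios of 0.32 (0.30 to 0.34) and 0.21 (0.20 to 0.22), each above 0 in all 4 sets. The mt- ratio was -0.17 and -0.10 in CD8 and 0.11 and 0.04 in CD4 T cells. The CD4 mt- ratio was 0.03 and -0.02 without barcodes with other-cell UMIs, and it was -0.07 among barcodes of 8000 to 14000 UMIs at day 19, so the day-19 sign turned. Nuclear UMIs per mt- UMI were 3.32 and 2.695 in cycling against 2.14 on both days in non-cycling CD8 T cells.

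Macrophage markers were lower in cycling cells, at 1087 against 2275 CPM in CD8 T cells of day 13 and 2232 against 2881 CPM at day 19, and without barcodes with other-cell UMIs the CD8 nuclear ratio was 0.45 and 0.25. Cycling cells also held more RNA, with medians of 16678 against 7090 UMIs in CD8 T cells of day 13 and 17192.5 against 8686.5 UMIs at day 19. Among barcodes of 8000 to 14000 UMIs the CD8 nuclear ratio was 0.26 and 0.09 and the mt- ratio turned positive, at 0.08 and 0.04. On the total without ribosomal and mt- genes the nuclear ratio was 0.34 and 0.12, and on that total within the depth window it was below 0 at day 19, at -0.05.

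Of 85 members 65 were higher and 2 lower past the threshold in cycling CD8 T cells of day 13, where 29.8% of all tested genes were higher and 26.4% lower. At day 19, 35 were higher and 4 lower (23.7 and 17.9%). In CD4 T cells 43 of 79 were higher and 0 lower at day 13 (24.5 and 23.4%), and 24 of 82 higher and 3 lower at day 19 (20.7 and 21.8%). The members' medians were 0.52 and 0.25 in CD8 and 0.35 and 0.21 in CD4 T cells, against 0.00 to 0.04 over all tested genes. Within the depth window the CD8 counts were 25 higher and 1 lower of 80 at day 13 and 12 and 0 of 80 at day 19. Over all genes tested in that window 25.7% were higher and 17.4% lower at day 13, and 22.4 and 12.8% at day 19. The members' share that was higher was thus near the background at day 13 and below it at day 19. In CD8 T cells of day 13, 75 members were higher in all 4 sets and 3 lower in all 4, with 33.3 and 28.5% over all tested genes.

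By role, all 4 complex II genes were past the fold in cycling CD8 T cells at day 13, with Sdhb the highest at 0.68, and 6 of 7 core subunits of complex I were, with 29.8% over all tested genes. In the depth window Sdhb (0.38) and Sdhc (0.42) of complex II and Ndufs8 (0.49) and Ndufv2 (0.56) of the core subunits were still past it, and the others of these groups were not. Cox5a was at 624, 562, 663 and 714 CPM in cycling against 330, 334, 328 and 351 CPM in non-cycling cells, far apart in every set (0.93, 0.88 to 0.98). Its ratio was 0.52 at day 19 and 0.69 and 0.53 in CD4 T cells, and 0.45 and 0.22 in CD8 T cells of the depth window. Among members with at least 1000 UMIs, Cox6a1 and Cox5b of complex IV followed in CD8 T cells of day 13, with 0.88 and 0.87, then Atp5j, a stalk subunit of the ATP synthase, with 0.82. At day 19 the highest of the members with at least 1000 UMIs were Ndufb8 (0.57), Cox7a2 (0.56), Atp5o (0.56), the subunit that joins the F1 head to the stalk, and Ndufab1 (0.54), the mitochondrial acyl carrier protein. The same genes did not lead everywhere: in CD4 T cells of day 19 Atp5g3, at 0.58, and Ndufc1, at 0.55, were the highest of those with at least 1000 UMIs.

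A trio of members was lower in all 4 comparisons of cycling cells. Of the tested members 4 and 7 in CD8 and 5 and 9 in CD4 T cells were below 0 at days 13 and 19, and these 3 were the ones common to all. Uqcrh is the hinge protein of complex III, Ndufa6 an accessory subunit of complex I, and Cox7a2l a relative of the Cox7a subunits that takes part in joining complexes III and IV into supercomplexes. They were the 3 lowest members with at least 1000 UMIs each time, and each was lower in cycling cells in 16 of 16 sets. With under 1000 UMIs, Ndufb4 of complex I was at -0.24 (-0.59 to 0.09) in CD4 T cells of day 13, as low as Uqcrh, but above 0 in the other 3 comparisons; it was named after its values were seen. Uqcrh was at 476, 568, 464 and 524 CPM in cycling against 649, 680, 681 and 655 CPM in non-cycling CD8 T cells of day 13, without overlap (-0.39, -0.45 to -0.34). Its ratio was -0.34 in CD8 T cells of day 19 and -0.24 and -0.40 in CD4 T cells. Ndufa6 had -0.30 and -0.32 in CD8 and -0.21 and -0.45 in CD4 T cells. Cox7a2l had -0.40 and -0.34 in CD8 and -0.15 (-0.43 to 0.11) and -0.47 in CD4 T cells. In CD4 T cells of day 13 without barcodes with other-cell UMIs the ratios were -0.41 for Uqcrh, -0.49 for Ndufa6, -0.43 for Cox7a2l and -0.67 for Ndufb4. In the depth window of CD8 T cells the ratios were -0.24 and -0.31 for Uqcrh, -0.18 and -0.26 for Ndufa6 and -0.07 and -0.17 for Cox7a2l. Other Cox7a genes did not share this: Cox7a2 had 0.67 and 0.56 in CD8 T cells, and Cox7a1 was too low to test.

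**Figure D5:**
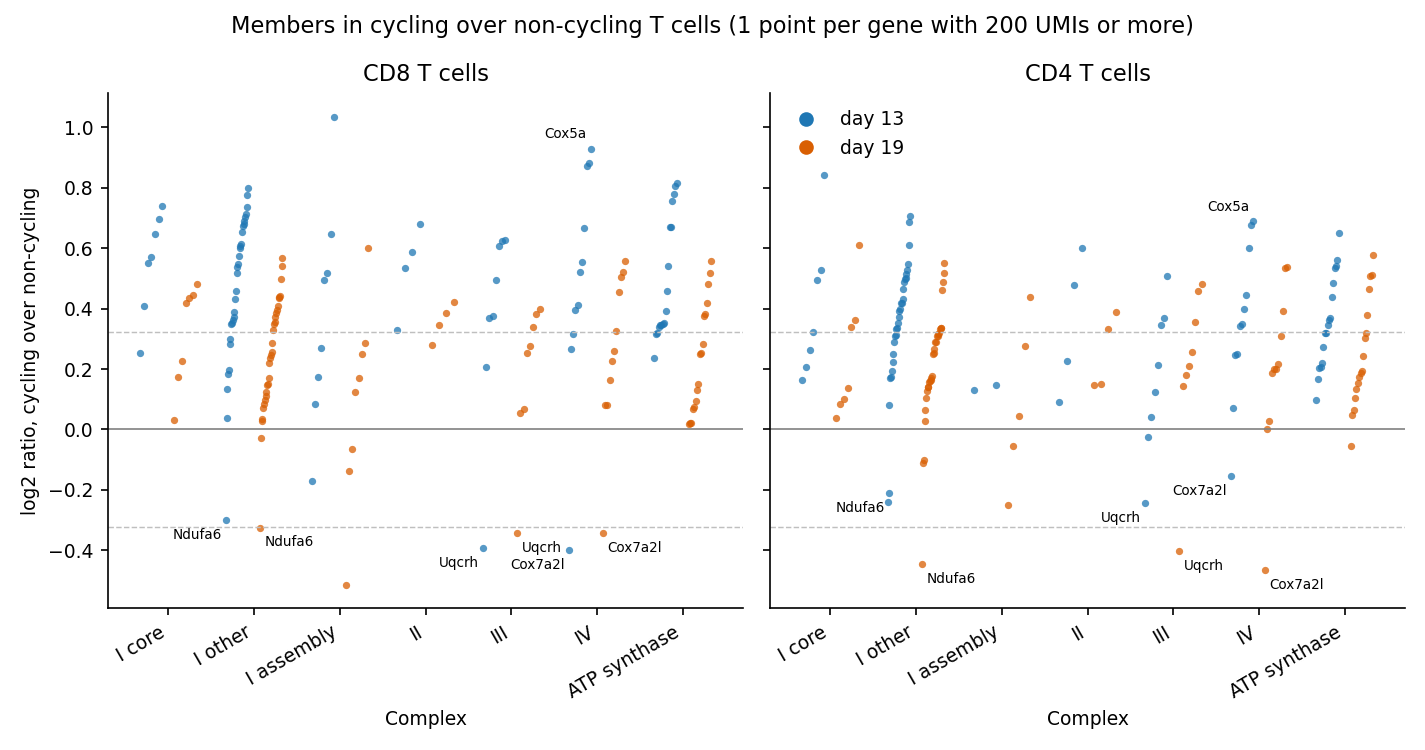
Log2 ratio of cycling over non-cycling cells (y axis) for each member with at least 200 UMIs, by complex (x axis), in CD8 (left) and CD4 T cells (right) at day 13 (blue) and day 19 (orange); dashed lines mark the fold threshold of 0.32. Most points are above 0, 81 of 85 in CD8 T cells of day 13, while Uqcrh, Ndufa6 and Cox7a2l are below 0 in all 4 comparisons.

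Since these genes moved together against the group, their promoters are shown beside that of Cox5a, the highest of the members with 1000 UMIs in cycling cells of both classes at day 13. The windows are the 150 bases before the RefSeq transcript start (build GRCm38.p6), printed 5′ to 3′ on the gene's strand, with capitals for the motif matches named below.
Cox5a, chr9:57521082-57521231, plus strand: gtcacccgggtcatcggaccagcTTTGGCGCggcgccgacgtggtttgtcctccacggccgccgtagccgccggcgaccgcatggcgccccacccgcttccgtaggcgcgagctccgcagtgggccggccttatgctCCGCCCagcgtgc
Uqcrh, chr4:116075071-116075220, minus strand: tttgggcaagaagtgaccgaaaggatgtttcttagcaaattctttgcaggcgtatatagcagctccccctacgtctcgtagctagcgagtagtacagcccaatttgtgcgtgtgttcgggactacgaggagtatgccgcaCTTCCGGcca
Ndufa6, chr15:82354292-82354441, minus strand: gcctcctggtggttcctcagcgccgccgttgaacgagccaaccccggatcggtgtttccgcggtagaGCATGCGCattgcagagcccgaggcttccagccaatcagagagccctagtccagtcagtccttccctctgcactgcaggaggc
Cox7a2l, chr17:83514334-83514483, minus strand: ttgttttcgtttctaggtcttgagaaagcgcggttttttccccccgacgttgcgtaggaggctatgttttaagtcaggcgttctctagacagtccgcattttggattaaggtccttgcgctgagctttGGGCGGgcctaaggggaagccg

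The Cox5a window lies inside the gene's annotated span and holds a match to the E2F core, TTTNGCGC, 127 to 120 bases before the start, and a match to the SP1 core on the opposite strand 13 to 8 bases before it. Uqcrh has an opposite-strand match to the core shared by ETS factors and GABP, CCGGAAG, 10 to 4 bases before its start, and Ndufa6 one to the NRF1 core, GCGCANGC, 83 to 76 bases before. Cox7a2l has the SP1 core GGGCGG 22 to 17 bases before. The 3 genes lower in cycling cells thus share none of the searched motifs in these windows. Over the 250 bases before the start, 80 windows of 75 members were compared with all 32851 windows of the table on both strands. The NRF1 core was in 20 of the members' windows and in 8.3% of all. Among the members' windows against all, the percentages were 17.5 against 6.9% for the ETS and GABP core, 3.8 against 1.1% for the E2F core, 37.5 against 32.7% for the SP1 core, 6.2 against 4.1% for the ERR element AAGGTCA and 1.2 against 4.5% for the YY1 core AAGATGG. The E2F, ERR and YY1 percentages rest on only 3, 5 and 1 of the members' 80 windows. The NRF1 and E2F cores can share the letters GCGC. A match describes letters and is not a bound site.

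Other mitochondrial genes were counted the same way in cycling cells, where 29.8 and 23.7% of all tested genes in CD8 T cells of days 13 and 19 were higher past the threshold, and 24.5 and 20.7% in CD4 T cells. Of the tricarboxylic acid cycle, which feeds electrons to the chain, in CD8 T cells 8 of 14 tested were higher past the threshold and 0 lower at day 13 (median 0.43), among them Cs, Idh3a, Fh1 and Mdh2, and 6 of 14 at day 19 (median 0.31). CD4 T cells had 9 of 13 and 7 of 14, and 0 lower. Among barcodes of 8000 to 14000 UMIs, where fewer genes could be tested, the CD8 counts were 4 higher and 0 lower of 12 at day 13 (median 0.28) and 5 higher and 1 lower of 13 at day 19 (median 0.21), with 25.7 and 22.4% of all genes higher. Of 30 electron carriers and assembly genes of complexes, 11 were higher and 1 lower in CD8 T cells of day 13 (median 0.23). That share is near the background, and in the depth window 6 of 18 were higher and 1 lower. Counts of this list in the other cycling comparisons are not given here. Cyc1, the cytochrome c1 of complex III, had 0.83 and 0.38, and Cycs, cytochrome c, 0.56 and 0.49 on the 2 days. Of the 17 tested genes for mitochondrial gene expression and biogenesis 4 were higher (Tfam, Tfb1m, Slirp and Nrf1) and 3 lower (Ppargc1b, Pprc1 and Myc) in CD8 T cells of day 13, where 26.4% of all tested genes were lower. The counts were 5 higher and 4 lower of 15 in CD8 T cells of day 19, and 5 of 6 and 3 of 9 higher with 0 lower in CD4 T cells of days 13 and 19. Tfam, which packages and transcribes mitochondrial DNA, and Nrf1 were among the higher ones in all 4 comparisons. Myc had -1.05 and -0.36 in CD8 and 0.47 (0.07 to 0.85) and 0.08 in CD4 T cells. Of the 6 genes for uncoupling and stress, the ATP carrier Slc25a5 was past the threshold upward in all 4 comparisons, with 0.69 and 0.40 in CD8 and 0.43 and 0.53 in CD4 T cells. Slc25a4 was so at day 13, with 0.35 and 0.74, but had 0.20 and 0.25 at day 19. Ucp2, an inner-membrane carrier of the uncoupling protein family, had 0.06 and -0.13 in CD8 and -0.22 on both days in CD4 T cells.

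In terminal-like CD8 T cells 6 of 10 tested carriers and assembly genes were higher and 0 lower at day 13 (median 0.33), and 3 higher and 1 lower of 10 at day 19 (median 0.18). Over all tested genes 23.3% were higher and 18.1% lower at day 13, and 20.2 and 19.2% at day 19. Etfb, a subunit of the electron transfer flavoprotein, Cox17, a copper chaperone for complex IV, and Uqcc2, an assembly factor of complex III, were in both counts. Cox17 differed most of these, at 602.7 CPM in terminal-like against 297.8 CPM in progenitor-like cells at day 13 and 609.0 against 287.1 CPM at day 19, log2 ratios of 1.02 and 1.08. In expanded CD8 T cells 8 of 24 of the list were higher and 4 lower at day 13, and 7 of 14 higher and 1 lower at day 19, with 26.5 and 11.4% over all genes at day 13 and 24.9 and 17.9% at day 19. The day-13 share that was higher is near that background. Cox17 was among the higher ones on both days, at 496.0 against 261.5 CPM and 557.8 against 241.0 CPM. Of the tricarboxylic acid cycle genes 2 of 7 were higher in terminal-like cells at day 13 (Cs and Idh3a), which is near the background, and at day 19 0 of 6 were higher and Ogdh was lower.

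Per cell, the nuclear and mt- shares of thinned non-cycling CD8 T cells had a Spearman correlation of -0.17 over 2592 cells at day 13 and -0.38 over 1402 cells at day 19. In CD4 T cells it was 0.27 over 742 and 0.09 over 666 cells. The values were -0.26 and -0.44 in CD8 and 0.16 and 0.03 in CD4 T cells without barcodes with other-cell UMIs. Both shares come from the same UMIs of a cell, so these are given as a description. The nuclear share also went with depth in CD8 T cells, at 0.23 and 0.44, or 0.36 and 0.51 without barcodes with other-cell UMIs. In CD4 T cells its correlation with depth was -0.20 and -0.01, and it turned to 0.06 and 0.21 without those barcodes.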

How the data were processed

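The authors deposited unfiltered counts, whole UMIs per gene and barcode, 1 matrix per day, and tables of receptor contigs. Per the submitters' processing notes bcl2fastq 2.20, Cell Ranger 4.0.0 with STAR 2.7.5c, Seurat and R 4.1.2 were used with build mm10; settings were not analysed here. Counting reads onto near-identical gene copies was not checked. UMIs were summed per group, and log2 ratios of CPM given with exact 95% Poisson intervals (Python 3.11.15, SciPy 1.17.1, NumPy 2.4.6, pandas 2.3.3). Each group is 1 capture, so no test was made; intervals cover counting error only. An arm needed 20 cells, a set 10 cells in both arms and a gene 200 UMIs in both sums. Classes, states and clones are as given in the report; Foxp3, cycling and state calls used counts thinned to 5000 UMIs. No doublet caller was run; requiring exactly 1 TRB chain was an alternative. The code for ratios and intervals was checked on simulated counts.

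The genes, lists and comparisons were chosen with earlier results of these data known. Named in each comparison were the 4 highest and 4 lowest members with at least 1000 UMIs, isoform pairs, Sdha to Sdhd, the mt- genes, Cycs, Cyc1 and Ppargc1a. Members named outside it were chosen after their values were seen. Alternatives covered depth, thinning, cycling cells, other-cell UMIs, the total and each contig set left out. Promoter windows and positions are from RefSeq for GRCm38.p6, where 75 members had a window and 92 a position.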

Additional observations from a re-analysis of the deposited data

Results flagged for a closer look

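The mt- share of non-cycling CD4 T cells at day 19 was 1.02% in contig set 2, while the other 3 sets lay between 0.990 and 0.991%. The gap between set 2 and the nearest other set was large beside the range of the 4 values. Set 2 did not stand apart without barcodes with other-cell UMIs, with 0.962, 1.06, 1.14 and 1.06% in sets 1 to 4. A gap past the limit used here arises by chance in about 1 in 20 groups of this size.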

How the results depend on the processing

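All values are log2 ratios of the summed nuclear genes. Of 176 alternatives over the 15 comparisons, 117 moved the value by less than the spread between contig sets, 53 moved it further and 6 turned its sign. In most cases the cause was not tested.

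On the total without ribosomal and mt- genes the ratio of day 19 over day 13 was 0.2114 in CD8 T cells, CD8 over CD4 was 0.269 and 0.2578 at days 13 and 19, terminal-like over progenitor-like was 0.088 at day 13 and cycling CD8 was 0.3358 and 0.1225. It turned sign for Foxp3-positive cells at day 13 (-0.0114) and for expanded CD8 T cells (-0.0074 and -0.0024). With fewer than 20 other-cell UMIs as well, the ratios were 0.1902 and 0.1357 for the days (CD8, CD4), 0.1555 and 0.21 for CD8 over CD4, -0.0628 (turned) and -0.213 for Foxp3, 0.003 and 0.0468 for expanded CD8 and 0.2901 and 0.1084 for cycling CD8. With fewer than 20 other-cell UMIs alone they were 0.1171 for the days in CD4, 0.0211 and 0.0207 for CD8 over CD4 and 0.2673 for cycling CD4 at day 19. With fewer than 3 they were 0.1058 and 0.1035 for the days, 0.3509 and 0.3267 for expanded CD8, 0.1682 for expanded CD4 and 0.2862 for cycling CD8 at day 19, and CD8 over CD4 turned to -0.0837 and -0.0813. With the median of all tested genes at 0 the days in CD8 gave 0.1992, CD8 over CD4 0.1694 and 0.1928, and expanded CD8 0.0556 and 0.08.

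Among barcodes of 8000 to 14000 UMIs the days in CD4 gave 0.2878, CD8 over CD4 at day 13 gave 0.2284, cycling CD8 0.2577 and 0.0921 and expanded CD4 0.0221. With at least 8000 UMIs, CD8 over CD4 gave 0.2188 and 0.123, expanded CD8 0.1197 and 0.042 and cycling CD8 at day 19 0.1723. Thinning each cell to 5000 UMIs gave 0.0601 and 0.0054 for CD8 over CD4, 0.2081 for expanded CD8 at day 19 and 0.098 for expanded CD4. With cycling cells kept in, the days in CD8 gave 0.0961, CD8 over CD4 0.1991 and 0.0911 and expanded CD4 0.0482. With 1 UMI enough to call a cell cycling, cycling CD8 at day 13 gave 0.3443, cycling CD4 0.147 and 0.1222, CD8 over CD4 at day 19 0.0358 and expanded CD4 0.0385. Leaving out single contig sets gave 0.0406 to 0.0754 for expanded CD4, the low value without day-19 set 2, 0.0034 to 0.0660 for Foxp3 at day 13 and 0.0784 to 0.1391 for terminal-like cells at day 19.

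Counts of members past the fold threshold of 0.32 moved more, as did the number tested and the share of all genes past it. Among barcodes of 8000 to 14000 UMIs 29 of 78 were higher between the days in CD4 T cells (14 in all barcodes), with 21.5% over all genes. In CD8 over CD4 at day 13 it was 17 of 81 (1 in all), with 19.1%, in terminal-like cells at day 13 10 of 51 (18 in all), with 22.6%, and in cycling CD4 T cells at day 19 13 of 73 (24 in all), with 18.6%. The last 3 are near the background. With fewer than 20 other-cell UMIs 5 of 85 and 6 of 78 were higher between the days (8 and 14), below the background of 11 and 12.1%. In terminal-like cells at day 19 it was 13 of 72 (7), with 25.9%, and 12 of 74 were lower in Foxp3-positive cells at day 19 (2), with 15.4%. At 1.5-fold 32 were higher in cycling CD8 T cells of day 13 and 9 in cycling CD4 T cells of day 13. Every other comparison had at most 1, except CD8 over CD4 at day 19, with 2. The share of all genes past 1.5-fold is not given here, so these counts are not set against a background. No paired analysis was possible because each day is 1 capture, which leaves no test to block. No label joins the sets of the days, while both arms of the other 13 comparisons come from the same sets and are compared within them in the report.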
